A study of Mus musculus with 6 samples.

Results

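The enzymes that make, recycle and break down nucleotides were examined in inguinal white adipose tissue (iWAT), a fat pad under the skin of the mouse groin, after a short stay in the cold. The gene list was set by symbol, with no measured value in its rule, and all 37 genes had a row among the 23997 symbols of the deposited table. By role they fall into 8 genes of purine synthesis up to inosine monophosphate (IMP), 5 that turn IMP into AMP and GMP, 5 of pyrimidine synthesis, 8 of salvage, 6 of breakdown, and 5 that make deoxynucleotides or keep uracil out of them. Expression was measured by RNA sequencing in 2 groups of 3 libraries each. Atf4AKO mice had floxed Atf4 alleles together with AdipoqCre, a Cre recombinase under the adiponectin promoter that acts in adipocytes, and Atf4WT mice had the floxed alleles and no Cre. Both genotypes lived at 22 °C and were then held at 5 °C for 12 h, so there was no group without cold. The sources used here do not give age, sex or whether animals were pooled, and p-values therefore measure the spread among these libraries, which may be technical. Cre itself and the loss of Atf4 cannot be told apart.

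Purine rings are built on activated ribose, phosphoribosyl pyrophosphate, and take formyl groups from folate, whereas pyrimidine rings are built first and joined to the ribose later. Salvage enzymes return bases and nucleosides to nucleotides at lower energy cost, and ribonucleotide reductase turns ribonucleotides into the deoxynucleotides needed for DNA. In cultured cells the transcription factor ATF4 has been tied to purine synthesis through Mthfd2, the mitochondrial folate enzyme named in the series title, and adipose tissue is a known site of xanthine oxidoreductase, which makes uric acid.

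Values are FPKM, sequenced fragments scaled to transcript length and to library size. FPKM summed to between 524158 and 717778 a library, and relative depth, read from the lowest values, ran from 0.933 to 1.19 of the mean. Absolute depth is unknown. Atf4 itself was at 258, 323 and 317 FPKM in Atf4WT and at 152, 140.0 and 114 FPKM in Atf4AKO, so every Atf4AKO library lay below every Atf4WT library. The adipocyte marker Adipoq was at 1671.9 FPKM or more in every library. Other tissue differed widely between libraries. The 12 skeletal muscle markers summed to between 10.4 and 937 FPKM in Atf4WT and between 8.69 and 9027.9 FPKM in Atf4AKO, with the high sums in Atf4WT 2, Atf4AKO 1 and Atf4AKO 2. Of these markers, Myh2 and Actn3 were listed at 0 in Atf4AKO 3, and Myh1 and Myh2 in Atf4WT 3. Myh2 was at most 0.077 FPKM in any library. Others of the list were above 0 in Atf4AKO 3, up to 3.56 FPKM in Tnnc2. The 9 mammary and skin epithelial markers summed to 0.572 to 714 FPKM in Atf4WT, highest in Atf4WT 1. In Atf4AKO they summed to 0.672 to 126 FPKM. The milk genes Wap and Csn2 were listed at 0 everywhere. Csn3, also a milk gene, reached 163 FPKM in library Atf4WT 1, 25.4 in Atf4WT 2 and 39.1 in Atf4AKO 3. It was listed at 0 in the remaining libraries. The 7 macrophage markers found summed to 226 to 551 FPKM in Atf4WT and 456 to 2644.8 FPKM in Atf4AKO, highest in Atf4AKO 1, with none at 0. In whole tissue, fewer cells of a type and less RNA per cell cannot be told apart.

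Promoter windows of 300 bases, reaching from upstream of the gene start into its first bases, were read from RefSeq (GRCm38.p6), which holds 33 of the 37 members. The members below are shown because the results turn on them or because they are a head-to-head pair, and each holds a marked motif. Cad, on which results also turn, had no match to the motifs named next and is not shown. Capitals mark TGATGNAA, the core of the element that ATF4 binds with C/EBP partners, in Prps1, CCAAT in Gart and Rrm2, CACGTG (the E-box) in Paics, and TTTCCCGC (an E2F-type site) in Ppat. Each motif was searched on both strands, so that the sites in Ppat appear as their reverse complement.
Prps1: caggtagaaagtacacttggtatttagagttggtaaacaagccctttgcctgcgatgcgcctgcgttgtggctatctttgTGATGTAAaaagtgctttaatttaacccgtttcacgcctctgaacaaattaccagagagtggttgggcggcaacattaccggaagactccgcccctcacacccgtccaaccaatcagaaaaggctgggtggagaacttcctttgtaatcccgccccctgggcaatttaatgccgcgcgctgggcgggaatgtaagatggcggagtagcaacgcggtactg
Gart: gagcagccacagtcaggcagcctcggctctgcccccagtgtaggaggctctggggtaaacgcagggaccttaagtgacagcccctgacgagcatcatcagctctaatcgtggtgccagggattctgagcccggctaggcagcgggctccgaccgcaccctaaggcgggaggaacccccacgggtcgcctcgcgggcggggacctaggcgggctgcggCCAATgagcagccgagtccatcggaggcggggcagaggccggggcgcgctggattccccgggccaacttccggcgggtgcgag
Paics: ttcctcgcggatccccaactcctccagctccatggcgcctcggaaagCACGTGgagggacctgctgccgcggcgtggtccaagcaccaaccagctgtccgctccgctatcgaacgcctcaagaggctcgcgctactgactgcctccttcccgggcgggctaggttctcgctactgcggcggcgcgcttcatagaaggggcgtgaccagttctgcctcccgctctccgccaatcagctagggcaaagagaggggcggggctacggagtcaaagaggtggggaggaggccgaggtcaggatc
Ppat: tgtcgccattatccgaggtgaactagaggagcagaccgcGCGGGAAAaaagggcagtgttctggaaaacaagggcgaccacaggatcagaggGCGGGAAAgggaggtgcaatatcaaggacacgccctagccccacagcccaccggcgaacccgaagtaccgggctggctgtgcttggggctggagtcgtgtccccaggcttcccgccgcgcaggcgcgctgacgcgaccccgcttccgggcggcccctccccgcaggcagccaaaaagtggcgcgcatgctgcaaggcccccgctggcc
Rrm2: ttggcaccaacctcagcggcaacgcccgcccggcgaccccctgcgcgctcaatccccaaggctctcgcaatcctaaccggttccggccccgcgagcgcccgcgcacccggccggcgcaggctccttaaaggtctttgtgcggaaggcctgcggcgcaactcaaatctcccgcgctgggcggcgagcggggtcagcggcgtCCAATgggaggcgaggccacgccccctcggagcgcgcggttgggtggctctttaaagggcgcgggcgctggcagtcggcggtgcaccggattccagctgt
The windows lie at chrX:140456353-140456652 on the plus strand for Prps1, at chr16:91646923-91647222 on the minus strand for Gart, at chr5:76951052-76951351 on the plus strand for Paics, at chr5:76951529-76951828 on the minus strand for Ppat and at chr12:24708004-24708303 on the plus strand for Rrm2. Of the members with a window, Prps1 was the 1 that held TGATGNAA, which is in 3.97% of all 32851 RefSeq windows. The E-box was in 4 members, Atic, Impdh2, Paics and Tyms, against 7.15% of all windows. TTTCCCGC was in 2, Ppat and Prps2, against 1.07%, and CCAAT was in 12, against 37.4%. These counts are of genes, whereas the percentages are of windows. The 33 members have 41 windows, of which TGATGNAA was in 1, the E-box in 4, TTTCCCGC in 2 and CCAAT in 13. The Prps1 and Paics windows also hold 1 CCAAT each, left in lower case. A match describes the letters and does not show a bound site.

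The members spanned a wide range of levels. Of the 37, 4 had a mean of at least 50 FPKM, 11 lay from 10 to 50, 14 from 2 to 10 and 8 below 2 FPKM. FPKM is per length, so genes can be set side by side. Xdh, xanthine oxidoreductase, the enzyme that ends purine breakdown with uric acid, was highest at 241 FPKM (mean of 6 libraries) and held 27.3% of the summed level of all members. Next came Hprt at 128 FPKM, which salvages hypoxanthine and guanine, Adk at 65.9 FPKM, which phosphorylates adenosine, and Paics at 59.1 FPKM, a purine synthesis enzyme. The ranges of Adk (60.1 to 77.6 FPKM) and Paics (57.5 to 63.9 FPKM) overlapped, as did those of Paics and Prps1 (24.3 to 102 FPKM), and the lowest Hprt library (98.7 FPKM) lay just under the highest of Prps1. Xdh overlapped no gene below it. Ppat, the amidotransferase that commits the pathway to purines, was at 2.25 FPKM, and Cad, which starts pyrimidine synthesis, at 1.86 FPKM. The ratio of Hprt to Ppat in a library ran from 51.6 to 71.5. Uox, the urate oxidase of mouse liver, was listed at 0 in all 6 libraries.

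**Figure D1:**
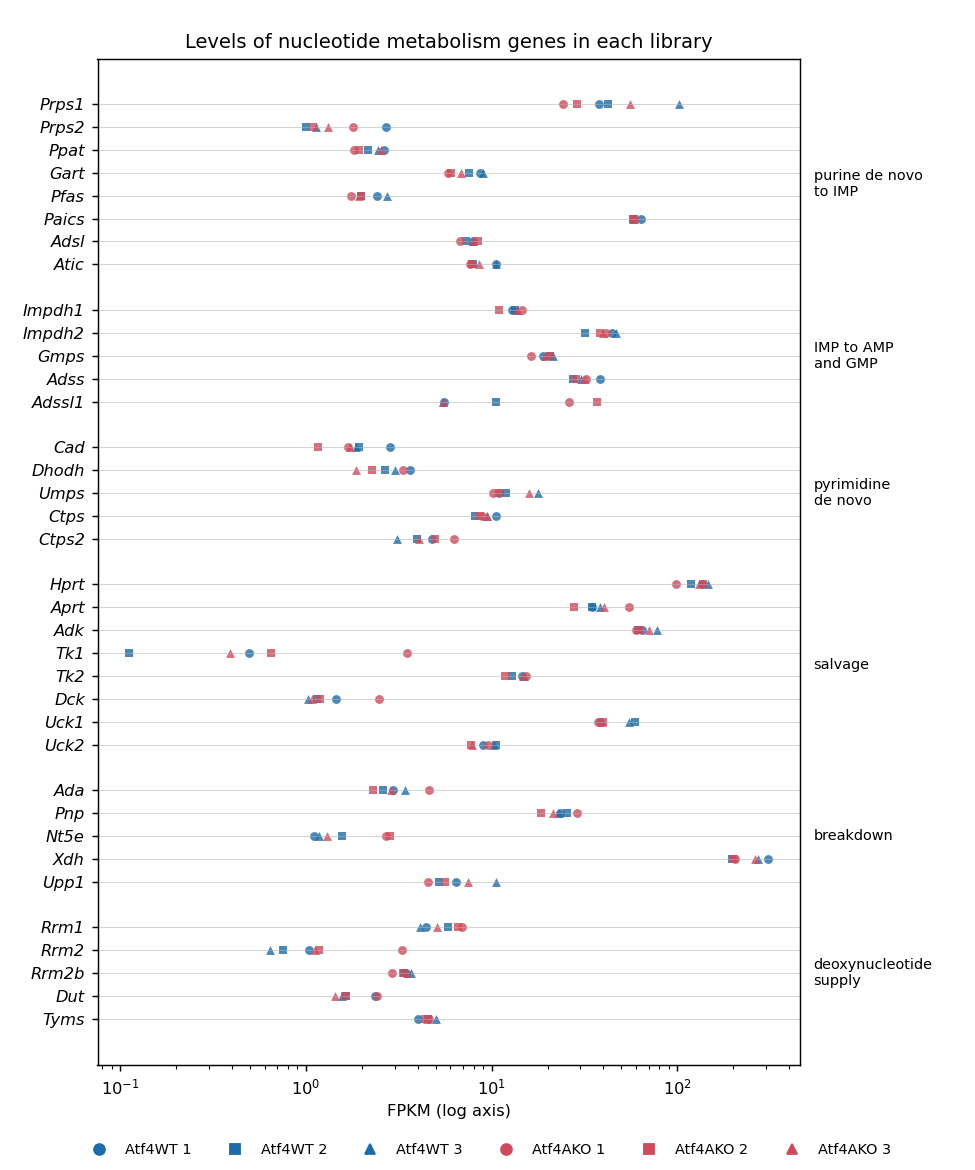
FPKM of the members on a log axis, 1 row per gene, grouped by role, with 1 symbol per library (blue, Atf4WT, red, Atf4AKO). Xdh lies to the right of all others, and Adssl1, Tk1, Rrm2 and Prps1 are spread most widely; Uox, and Tk1 in Atf4WT 3, were listed at 0 and are not drawn.

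No member differed between the genotypes past the threshold. Groups were compared on log2(FPKM + 1) with limma over the 12818 genes averaging 0.5 FPKM or more, which 36 members reached and Uox did not. The limma adjusted p was under 0.05 for 0 of the 36, where 0.0156% of all genes tested were called, and the smallest among the members was 0.5. At an unadjusted p under 0.05 limma gave 1 member (2.78%), Gart, against 9.95% of all genes. In 2 members, Gart and Cad, every Atf4AKO library lay below every Atf4WT library, which is 5.56% of the members and 8.34% of all genes. In 1 member, Rrm2, every Atf4AKO library lay above, which is 2.78% of the members and 8.21% of all genes. These shares were below those of all genes. Fewer libraries part the groups of any gene more easily, so the counts without a library are read against all genes. Without the 3 muscle-rich libraries, which leaves Atf4AKO 3 alone against 2, 13 members were lower (36.1%, against 28.8% of all genes) and 5 higher (13.9%, against 28.1%). The 95% interval of the log2 change, Atf4AKO minus Atf4WT, lay inside -1 to 1 in 31 members and inside -0.5 to 0.5 in 14.

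**Figure D2:**
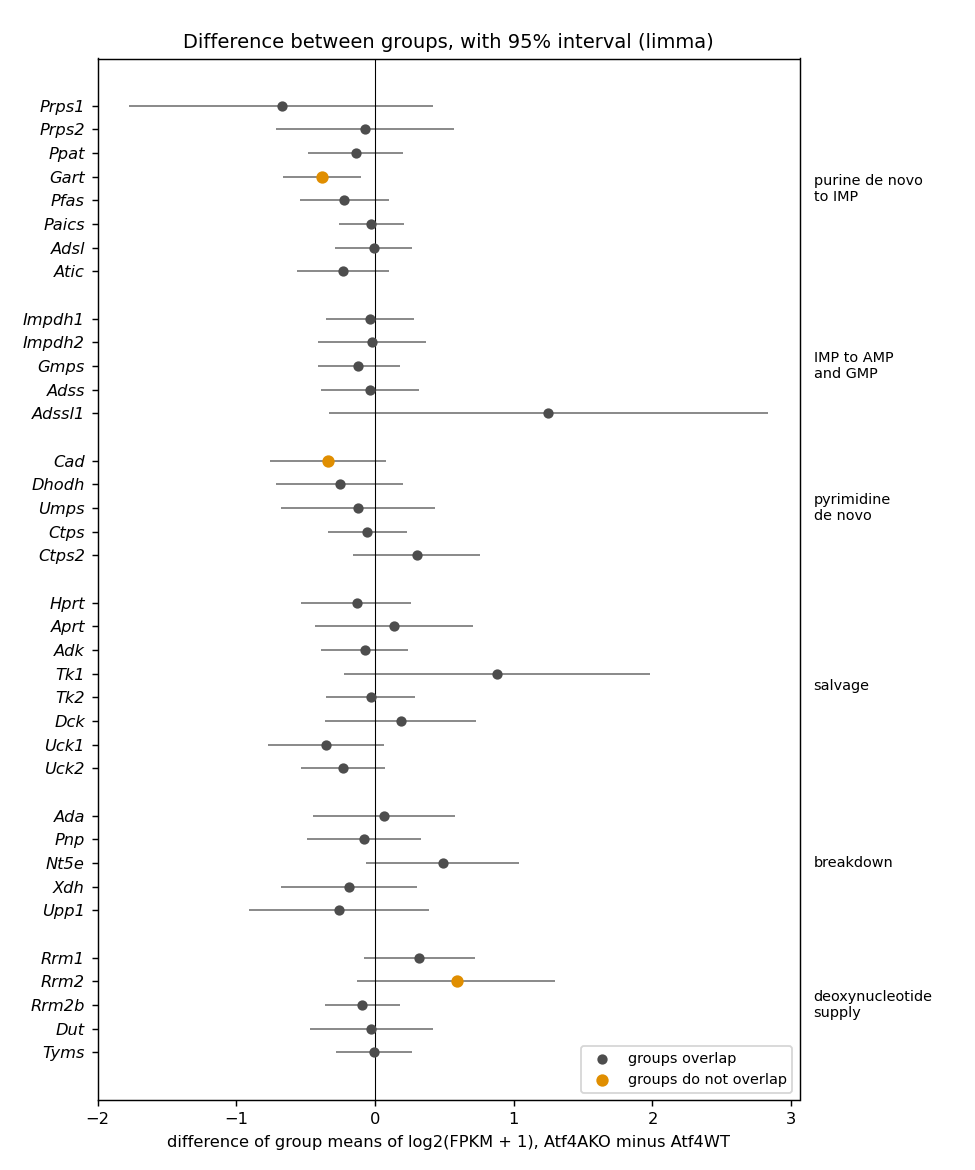
Atf4AKO minus Atf4WT difference in mean log2(FPKM + 1) with its 95% interval from limma, 1 row per tested member, grouped by role. The intervals of all but Gart reach 0, and the widest are those of Adssl1, Prps1 and Tk1.

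Purine synthesis up to IMP was the branch with the same sign throughout. All 8 genes had a negative log2 change, from -0.67 in Prps1 to -0.007 in Adsl, with a median of -0.18, whereas 49.4% of all genes tested were negative and their median was 0.0046. Over all members 27 of 36 were negative (75.0%), and with the muscle marker score as a covariate 17 were (47.2%, against 50.1% of all genes). Without the 3 muscle-rich libraries 26 of 35 were (74.3%, against 51.5%). The count was 19 without Atf4AKO 2 (52.8%, against 50.7%), 20 without Atf4WT 1 (55.6%) and 21 without Atf4WT 3 (58.3%). It was 26 to 28 with any other library left out. The libraries of the groups overlapped in 7 of the 8. Skeletal muscle was measured beside this. With the muscle marker score as a covariate the median was -0.081, and without the 3 muscle-rich libraries it was -0.21. In 6 of the 8 genes the lowest library was Atf4AKO 1, which was also the library highest in macrophage markers. Without Atf4AKO 1 the median was -0.19, and with the macrophage score as a covariate it was -0.1.

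Gart, which carries several steps of purine synthesis including the first transfer of a formyl group from folate, was at 8.70, 7.56 and 9.01 FPKM in Atf4WT and at 5.83, 6.06 and 6.85 FPKM in Atf4AKO. Atf4AKO 1 and 2 were lowest, and the groups did not overlap. The mean was 1.35 times as high in Atf4WT, a log2 change of -0.38 (SE 0.12, 95% interval -0.66 to -0.10), which missed the threshold (limma adjusted p = 0.5). An exact two-sided permutation test gave p = 0.1, which 3 against 3 libraries cannot go below. The change ran from -0.45 to -0.33 when each library was left out in turn and was -0.29 with the muscle score and -0.27 with the macrophage score as a covariate. The gene spans chr16:91621395-91646972 (GRCm38, minus strand), and 1014 of its 5144 exon bases are covered by the antisense gene Gm15964. The antisense gene has no row in the table. The libraries were stranded, but the strand setting of the counting is unknown here, so its reads may be among those of Gart.

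Atic, which carries the other transfer of a formyl group and closes the ring, was at 10.5, 7.90 and 10.6 FPKM in Atf4WT and at 7.67, 7.87 and 8.58 FPKM in Atf4AKO. The groups overlapped through Atf4WT 2 alone. The log2 change of Atic was -0.23, with an SE of 0.14 (limma adjusted p = 0.547). Pfas, which adds a nitrogen from glutamine between these steps, was at 2.40, 1.97 and 2.74 FPKM in Atf4WT and between 1.75 and 1.97 FPKM in Atf4AKO, again overlapping through Atf4WT 2. Adsl, which acts both here and on the way to AMP, stayed between 6.77 and 8.39 FPKM over all libraries with the groups interleaved.

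Prps1 and Prps2 make phosphoribosyl pyrophosphate, the substrate of purine, pyrimidine and salvage reactions alike. Prps1 was at 37.8, 42.1 and 102 FPKM in Atf4WT and at 24.3, 28.7 and 55.5 FPKM in Atf4AKO. The 2 highest libraries were Atf4WT 3 and Atf4AKO 3, 1 in each group, and the groups overlapped. Its log2 change of -0.67 had a wide interval, from -1.77 to 0.42 (limma adjusted p = 0.569). Prps2 was lower, between 0.999 and 2.69 FPKM, and the ratio of Prps1 to Prps2 ran from 13.5 to 89.7. Prps1 shares a run of 164 identical transcript bases with the copy Prps1l3, itself at 8.97 to 9.56 FPKM in Atf4WT and 7.24 to 8.55 FPKM in Atf4AKO, so part of its signal is uncertain.

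Ppat and Paics stand head to head on chromosome 5, with 276 bases between their starts, and share 272 exon bases on opposite strands. Their levels were far apart. Paics, which carries a carboxylation and the step after it, was between 23.0 and 32.1 times as high as Ppat in every library. It was also the steadiest member, with its highest library 1.11 times its lowest, and its log2 change of -0.027 had an interval from -0.26 to 0.21. Ppat was at 2.62, 2.16 and 2.43 FPKM in Atf4WT and at 1.82, 1.93 and 2.55 FPKM in Atf4AKO, with overlapping groups.

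**Figure D3:**
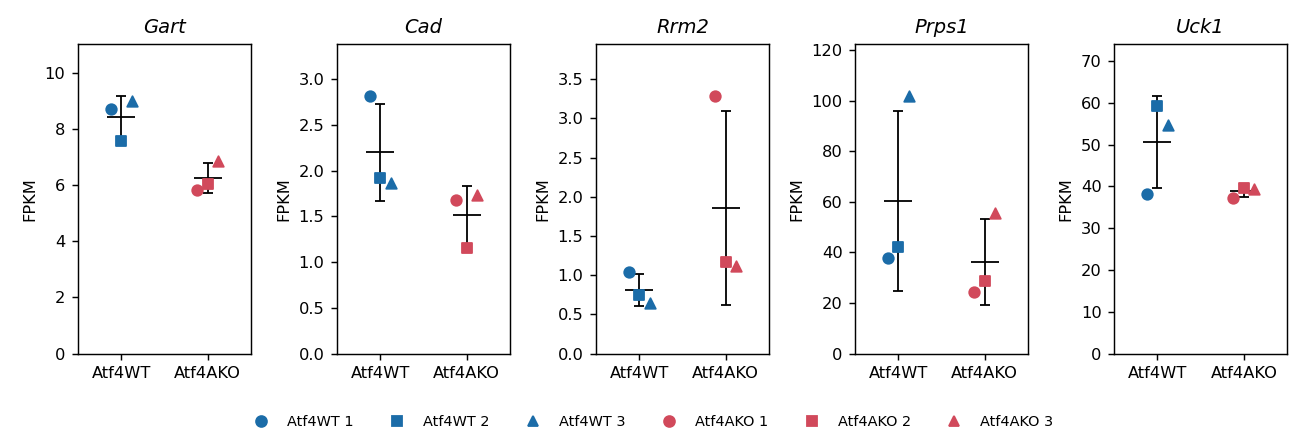
FPKM in each library for Gart, Cad, Rrm2, Prps1 and Uck1, with the group mean and SD (n = 3 each) as a dash and bar, each axis starting at 0. Gart and Cad do not overlap between groups, Rrm2 is parted mainly by Atf4AKO 1 at 3.29 FPKM, and Prps1 is highest in replicate 3 of each group.

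The step from IMP to AMP and GMP held 1 gene that stood apart and 4 that did not. Adssl1, the adenylosuccinate synthetase of muscle, was at 5.53, 10.6 and 5.48 FPKM in Atf4WT and at 26.1, 36.9 and 5.49 FPKM in Atf4AKO. Its high libraries were Atf4WT 2, Atf4AKO 1 and Atf4AKO 2, those rich in muscle markers, and they stood in the same order as the muscle score, at 1.51, 3.16 and 4.32. In the 3 libraries poor in muscle it was level, from 5.48 to 5.53 FPKM over both groups. Its log2 change of 1.25 (95% interval -0.33 to 2.83) did not pass (limma adjusted p = 0.522). Genes of muscle purine metabolism were high in the same libraries. Ampd1, the muscle AMP deaminase that forms the purine nucleotide cycle with Adssl1 and Adsl, was at 2.62, 10.6 and 30.0 FPKM in the same libraries and at most 0.0918 FPKM in the others, and the adenylate kinase gene Ak1 was at 9.03, 16.7 and 40.1 FPKM against at most 3.66 FPKM.

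Adss, the form found in most tissues, was between 27.5 and 38.3 FPKM and lowest in Atf4WT 2. Impdh2 and Impdh1, which commit IMP to guanine nucleotides, were at 31.7 to 46.5 and at 10.9 to 14.5 FPKM, and Gmps, the next enzyme, at 16.2 to 21.5 FPKM. The log2 changes of these 4 lay between -0.12 and -0.020, and the 95% interval of each stayed within 0.41 of 0 on the log2 scale.

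**Figure D4:**
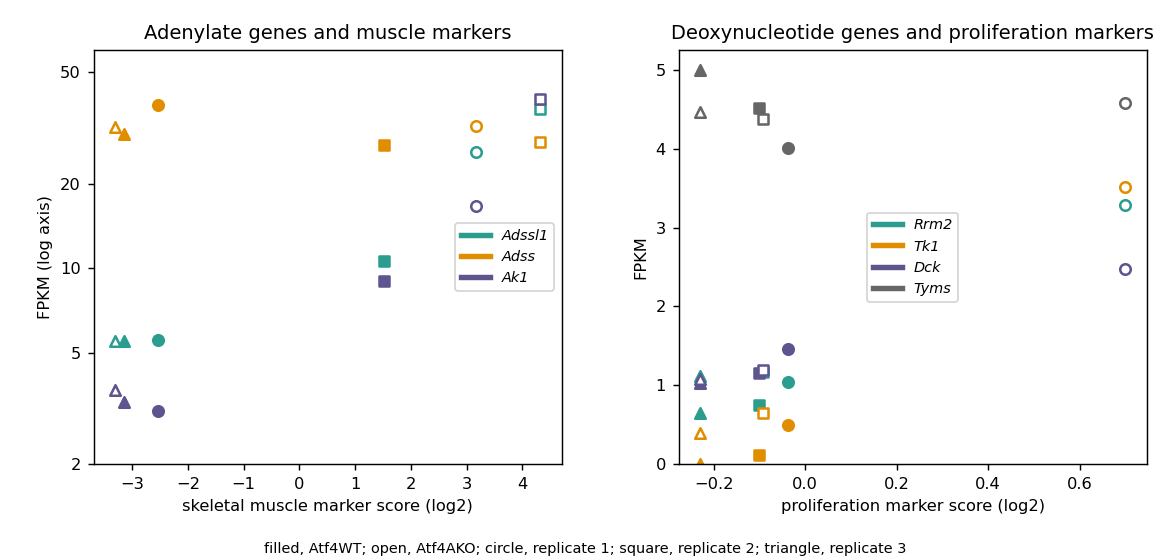
Left, FPKM (log axis) of Adssl1, Adss and Ak1 against the mean centred log2 level of 12 skeletal muscle markers in each library; right, FPKM of Rrm2, Tk1, Dck and Tyms against the same score of 8 proliferation markers. Filled symbols are Atf4WT and open symbols Atf4AKO; Adssl1 and Ak1 are high in the 3 libraries of positive muscle score, and Rrm2, Tk1 and Dck are highest in Atf4AKO 1, the library of highest proliferation score.

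Pyrimidine synthesis had 4 of 5 genes with a negative log2 change and a median of -0.12, which was 0.015 with the muscle score as a covariate. Cad, whose product carries the opening steps of the pathway, was at 2.82, 1.92 and 1.87 FPKM in Atf4WT and at 1.68, 1.16 and 1.73 FPKM in Atf4AKO. Atf4WT 1 was highest and Atf4AKO 2 lowest, and the groups were parted by the gap between 1.73 and 1.87 FPKM. The log2 change was -0.34 (SE 0.17, 95% interval -0.76 to 0.079, limma adjusted p = 0.52). Exact two-sided permutation gave p = 0.1. Without Atf4WT 1, the library with the most epithelial markers (714 FPKM summed), it was -0.21, and without Atf4AKO 2 it was -0.23. Cad lies on chromosome 5 from 31054620 to 31078479 (GRCm38).

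Dhodh, the mitochondrial enzyme that links pyrimidine synthesis to the respiratory chain, was at 3.64, 2.68 and 3.0 FPKM in Atf4WT and at 3.33, 2.27 and 1.86 FPKM in Atf4AKO, with overlapping groups. Umps, which completes uridine monophosphate, was at 11.0, 11.9 and 17.8 FPKM in Atf4WT and at 10.2, 10.9 and 15.8 FPKM in Atf4AKO. As for Prps1, its highest libraries were Atf4WT 3 and Atf4AKO 3. Ctps and Ctps2, which make CTP from UTP, were at 8.17 to 10.5 and 3.09 to 6.30 FPKM. Ctps2 was the 1 gene of the branch with a positive log2 change (0.30, 95% interval -0.16 to 0.76).

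Salvage genes showed no common direction, with 5 negative and 3 positive log2 changes and a median of -0.05. Hprt was between 98.7 and 146 FPKM, lowest in Atf4AKO 1, and its log2 change was -0.13 (95% interval -0.53 to 0.26). Aprt, the adenine counterpart of Hprt, was at 27.8 to 54.8 FPKM, highest in Atf4AKO 1. Adk was at 60.1 to 77.6 FPKM and the mitochondrial thymidine kinase Tk2 at 11.8 to 15.3 FPKM. Uck1, a uridine and cytidine kinase, was at 38.3, 59.2 and 54.6 FPKM in Atf4WT and at 37.2, 39.7 and 39.5 FPKM in Atf4AKO. Its 3 Atf4AKO libraries lay close together, and the groups overlapped through Atf4WT 1 alone (log2 change -0.35, SE 0.17, limma adjusted p = 0.512). Its relative Uck2 was at 7.76 to 10.6 FPKM, with a log2 change of -0.23 (95% interval -0.53 to 0.074).

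Breakdown genes likewise had overlapping groups, with a median log2 change of -0.082 over the 5 tested, which was 0.053 without Atf4AKO 2. Xdh was at 306, 196 and 271 FPKM in Atf4WT and at 205, 203 and 263 FPKM in Atf4AKO. It was highest in Atf4WT 1, the library richest in epithelial markers. Next came Atf4WT 3, the library poorest in these markers by summed FPKM. Atf4WT 2, richer in them than Atf4WT 3, was lowest in Xdh. Within Atf4AKO, Xdh was highest in Atf4AKO 3, the richest of that group in these markers. Their part in Xdh was not tested. The log2 change of Xdh was -0.19, with an interval from -0.68 to 0.30. Pnp, which splits purine nucleosides, was at 18.5 to 28.7 FPKM, and 292 of its transcript bases run identical in its copy Pnp2, so its value is uncertain. Ada, which turns adenosine into inosine, was at 2.30 to 4.60 FPKM, and Upp1, which splits uridine, at 4.54 to 10.6 FPKM with its highest library Atf4WT 3. Nt5e, the ectoenzyme CD73 that releases adenosine from AMP outside the cell, was at 1.10, 1.57 and 1.17 FPKM in Atf4WT and at 2.71, 2.82 and 1.29 FPKM in Atf4AKO. Atf4AKO 1 and 2 stood above all others and Atf4AKO 3 lay among the Atf4WT libraries (log2 change 0.49, SE 0.23, limma adjusted p = 0.504). The 7 fibroblast and preadipocyte markers summed to 2229.9 and 1386.4 FPKM in Atf4AKO 1 and 2, against 675 to 1205.4 FPKM in the other libraries, and their part in Nt5e was not tested.

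Of the 5 deoxynucleotide genes, Rrm2 had groups that did not overlap and the other 4 had groups that did, with a median log2 change of -0.0045. Rrm2, the small subunit of ribonucleotide reductase made in dividing cells, was at 1.04, 0.748 and 0.641 FPKM in Atf4WT and at 3.29, 1.17 and 1.12 FPKM in Atf4AKO. Atf4AKO 1 stood far above the rest, while Atf4AKO 2 and 3 cleared the highest Atf4WT library by little, and after rescaling to equal sums of FPKM the groups overlapped. The log2 change was 0.59 (SE 0.30, 95% interval -0.13 to 1.30, limma adjusted p = 0.515), with an exact two-sided permutation p of 0.1. Without Atf4AKO 1 it was 0.25, and with the macrophage score as a covariate it was -0.0017. That score was 2.01, 0.53 and -0.4 in Atf4AKO and -0.15, -0.69 and -1.3 in Atf4WT. It thus ran largely with genotype, and this fit cannot tell genotype and macrophage markers apart. The gene spans chr12:24708254-24714146 (GRCm38, plus strand).

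Tk1, the thymidine kinase of S phase, was at 0.492 and 0.112 FPKM and listed at 0 in Atf4WT, and at 3.52, 0.652 and 0.388 FPKM in Atf4AKO. Dck, the deoxycytidine kinase, was at 2.48 FPKM in Atf4AKO 1 and between 1.03 and 1.46 FPKM elsewhere. In this library the 8 proliferation markers had their highest score, 0.70 against -0.23 to -0.037 in the others, and the macrophage markers theirs, and their part in Tk1 and Dck was not tested. The remaining members of the supply did not follow Atf4AKO 1 alone. Rrm1, the large subunit, was at 4.41, 5.84 and 4.09 FPKM in Atf4WT and at 6.93, 6.56 and 5.09 FPKM in Atf4AKO, with overlapping groups. Rrm2b, the small subunit used by resting cells, was at 2.89 to 3.69 FPKM, lowest in Atf4AKO 1. Tyms, which makes thymidylate with a carbon from folate, was at 4.01 to 5.00 FPKM, and its log2 change of -0.0045 had an interval from -0.28 to 0.27. Dut, which removes dUTP, was at 1.43 to 2.40 FPKM.

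Ratios of paired genes inside a library do not depend on its scaling and were compared for 6 pairs. Rrm2b was 3.32, 4.49 and 5.76 times Rrm2 in Atf4WT and 0.878, 2.84 and 3.11 times Rrm2 in Atf4AKO, without overlap, and the small subunit of dividing cells was the higher in Atf4AKO 1 alone. Because Rrm2b itself stayed at 2.89 to 3.69 FPKM, this ratio largely restates the values of Rrm2 and is not a separate result. The mean log2 ratio differed by -1.16, with p = 0.1 by exact two-sided permutation (0.6 adjusted over the 6 pairs). It was -0.57 without Atf4AKO 1 and -0.49 without the muscle-rich libraries. Adssl1 was 0.144 to 0.388 times Adss in Atf4WT and 0.808, 1.30 and 0.172 times Adss in Atf4AKO, overlapping through the muscle-poor Atf4AKO 3, and the difference of 1.38 in mean log2 ratio was 0.081 without the muscle-rich libraries. The other 4 pairs overlapped as well, and no pair passed (exact permutation p from 0.1 to 0.8). Impdh1 stayed at 0.286 to 0.419 times Impdh2 and Uck2 at 0.180 to 0.256 times Uck1. No stretch longer than 34 identical bases is shared within any of these pairs.

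**Figure D5:**
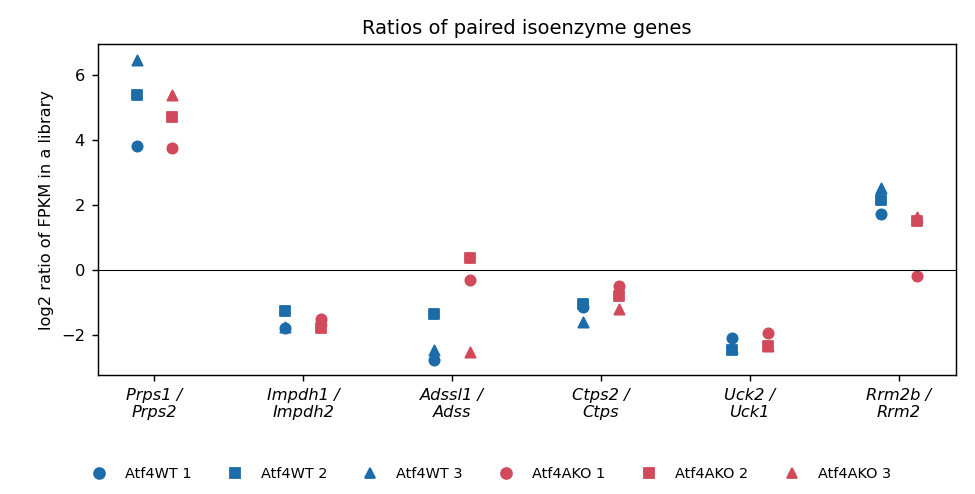
Log2 ratio of FPKM within a library for 6 pairs of related genes, 1 symbol per library (blue, Atf4WT, red, Atf4AKO). The pair Rrm2b and Rrm2 is parted between groups, and the ratio of Adssl1 to Adss is high in Atf4AKO 1 and 2.

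Of 66 further genes of nucleotide metabolism, 55 were tested and limma called 0, with 4 (7.27%) at an unadjusted p under 0.05, against 9.95% of all genes. In 4 (7.27%) all Atf4AKO libraries lay above and in 3 (5.45%) all lay below, against 8.21% and 8.34% of all genes, so none of these shares exceeded the background. Gda, guanine deaminase, was at 37.5, 36.0 and 35.0 FPKM in Atf4WT and at 80.2, 70.1 and 43.3 FPKM in Atf4AKO. Its Atf4AKO libraries were spread widely above a tight Atf4WT group (log2 change 0.77, SE 0.23, limma adjusted p = 0.5). Of ribose 5-phosphate supply, Rpia, which makes ribose 5-phosphate, was at 9.37, 7.10 and 7.64 FPKM in Atf4WT and at 6.42, 4.84 and 5.93 FPKM in Atf4AKO, and Rpe was at 9.55 to 10.2 FPKM against 9.35, 9.42 and 8.51 FPKM. Tkt, the transketolase of the same pathway, was higher in every Atf4AKO library, at 88.6, 189 and 141 against 219, 242 and 201 FPKM. The branch of 7 genes thus held both directions and a median log2 change of 0.038.

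Around extracellular adenosine and nucleosides, Entpd1 (CD39), which acts upstream of Nt5e, was at 11.5, 8.65 and 11.7 FPKM in Atf4WT and at 14.9, 12.3 and 13.3 FPKM in Atf4AKO. Slc28a2, a sodium-coupled nucleoside transporter, was at 3.22 to 4.08 FPKM in Atf4WT and at 10.5, 4.79 and 4.26 FPKM in Atf4AKO, highest in Atf4AKO 1. Adal, a deaminase related to Ada, was at 2.70, 3.17 and 3.17 FPKM against 2.40, 2.30 and 2.44 FPKM. The smallest limma adjusted p of these 3 genes was 0.504. Of 7 tested genes that supply folate carbon, 3 had a negative log2 change, and in none were the groups apart. Mthfd2 was at 2.63, 5.20 and 3.49 FPKM in Atf4WT and at 5.48, 3.60 and 2.34 FPKM in Atf4AKO, with interleaved groups.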

How the data were processed

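RNA of iWAT was sequenced from 3 Atf4WT and 3 Atf4AKO libraries (a stranded mRNA kit, per the labels' protocols). The authors deposited FPKM for each gene symbol and library, on build mm10 per the submitters' processing notes. For aligner, quantifier and annotation, the tools were not given in the sources used here. Median-of-ratios factors of the deposited FPKM were 0.998 to 1.00, so the libraries came already on 1 scale. Absolute depth is unknown, and no counting interval is given.

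Groups come from the sample titles and columns from the sample descriptions. Genes averaging 0.5 FPKM or more were compared as log2(FPKM + 1) with limma 3.58.1 in R 4.3.3 (eBayes with trend, no covariate), with Benjamini-Hochberg adjustment over 12818 genes and a threshold of 0.05. For genes of low FPKM the log2 change is smaller than the true ratio. Single values were compared by exact permutation (scipy 1.17.1). The fit was tested on simulated data for the same groups, where 200 of 12818 genes were changed by 2-fold to 16-fold. It recovered 52.8% of 2-fold and 86.6% of 4-fold changes, with 8.5 false calls a run on average. These shares describe the simulation, and whether they hold for the measured libraries was not tested. In the measured libraries Atf4 itself, at a log2 change of -1.14 (SE 0.16), did not pass (limma adjusted p = 0.49). A marker score is the mean log2(FPKM + 1) of a list, centred on each gene's mean.

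The members and lists were chosen with earlier results of these data known. Every member is named, and members whose groups do not overlap are given in full. Of the other pathway genes, those whose groups do not overlap are named (up to 8 of smallest p), with Ampd1, Mthfd2 and Atf4. Ak1 and Prps1l3 were added, and members beyond the rule given library by library, after their values were seen. Macrophage marker Adgre1 was not found under that symbol. The pair Tk2 and Tk1 was left out of the ratios, which were planned for 7 pairs, because Tk1 was listed at 0 in Atf4WT 3. Gene positions and promoters are RefSeq GRCm38.p6, and exon and transcript overlaps GENCODE M21. The alternatives were pseudocounts of 0.5 and 0.1, no filter and a filter at 2 FPKM, no trend, both rescalings, the replicate number as a block, marker scores as covariates, and libraries left out.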

Additional observations from a re-analysis of the deposited data

How the results depend on the processing

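No member passed the limma threshold under any of the 17 alternatives. Over all genes the count of 2 became 0 with the replicate block, 1 with the muscle score and 0 with the macrophage score as a covariate, 0 without the muscle-rich libraries, and 0 to 3 with each library left out in turn. Members higher in every Atf4AKO library, 1 in the report, numbered 0 with a filter at 2 FPKM (all genes 8.97%), 0 after rescaling to equal sums (3.26%), 5 without the muscle-rich libraries (13.9% of members, 28.1% of all genes) and 1 to 6 with each library left out (2.78% to 16.7% of members, 9.81% to 20.6% of all genes). Members lower in every Atf4AKO library, 2 in the report, numbered 1 (3.45%, all genes 8.18%), 6 (16.7%, 13.9%), 13 (36.1%, 28.8%) and 2 to 7 (5.56% to 19.4%, 9.78% to 20.6%) under the same settings. The filter at 2 FPKM lowered these counts by removing Rrm2 (mean 1.33 FPKM) and Cad (mean 1.86 FPKM), whose values it did not change. Leaving out libraries can only raise such counts, for any gene. Rescaling to equal sums moved the median of all genes to -0.12, beside which the pyrimidine median was -0.26, salvage -0.20 and breakdown -0.23. With the muscle score the pyrimidine median was 0.015 and 17 members were negative, and breakdown ran from -0.13 to 0.053 with each library left out. Left-out libraries also took the medians near 0 across it, salvage up to 0.021 without Atf4WT 3, IMP to AMP and GMP up to 0.049 and deoxynucleotide supply up to 0.1 without Atf4WT 1. The log2 change of Rrm2 turned to -0.0017 with the macrophage score, in a fit that cannot tell genotype and macrophage markers apart. The ratio differences turned sign without the muscle-rich libraries for Prps1 over Prps2 (0.24), Impdh1 over Impdh2 (0.23) and Uck2 over Uck1 (-0.089), and for these pairs with each library left out ran from -1.32 to 0.018, from -0.11 to 0.15 and from -0.021 to 0.22. The difference for Ctps2 over Ctps was 0.16 without the muscle-rich libraries, against 0.43. The causes were not tested. Same-numbered libraries correlated at 0.0818, 0.404 and 0.0691, and the other pairings at -0.323 to 0.187. With 3 libraries in each group, these values cannot show whether same-numbered libraries share more than a number. With the replicate block the limma adjusted p was 0.297 for Gart, 0.359 for Cad and 0.317 for Rrm2, at unchanged log2 changes. Of 272 values 238 were labelled as kept, 26 as moved and 8 as reversed. Part of the kept values were fixed in advance. Dropping the trend or adding the replicate block cannot change a log2 change, a median of them or a ratio difference. Rescaling by median of ratios changed little, because its factors were 0.998 to 1. The label rested on direction, side of the threshold or spread, and for counts on a limited ratio to the main count. By that ratio, 19 negative members without Atf4AKO 2, against 27, were labelled as kept. Absolute depth is unknown. The SE of the log2 change was largest for Adssl1 (0.66), Prps1 (0.46) and Tk1 (0.46).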
